A study of Mus musculus with 52 samples.

Results

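Polycomb proteins are chromatin repressors that keep developmental genes silent in cells where those genes are not needed. Polycomb repressive complex 2 (PRC2) methylates lysine 27 of histone H3 through its catalytic subunit EZH2 or EZH1, and needs EED and SUZ12 to do so, while JARID2 helps bring the complex to its targets. Polycomb repressive complex 1 (PRC1) ubiquitinates histone H2A through RING1B, the product of Rnf2, and its canonical form reads the methyl mark through a chromobox protein such as CBX2, CBX7 or CBX8. EZH2 is the form best known from dividing cells and EZH1 from resting cells.

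The levels of 9 Polycomb subunit genes were examined in mice with and without the Tug1 locus: Ezh1, Ezh2, Eed, Suz12 and Jarid2 of PRC2, and Rnf2, Cbx2, Cbx7 and Cbx8 of PRC1. The genes were taken by name from the deposited tables, which list 39144 genes in all, 34865 of them in testes. Tug1 is a long noncoding RNA, a class of RNA for which binding to Polycomb complexes has often been discussed, and the comparison addresses whether the genes for those complexes were themselves at other levels without it.

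RNA with poly(A) tails was sequenced from male mice. In Tug1-/- animals (allele Tug1_tm1.1Vlcg) the gene body after the first exon is replaced by lacZ, and the promoter and first exon remain. The tables hold group means from 4 wild-type and 4 Tug1-/- testes, 3 rescue testes, 3 wild-type and 2 Tug1-/- prostates, and, of each genotype, 3 samples of spleen, liver, heart, eyes and MEFs (mouse embryonic fibroblasts, primary cells from littermate embryos of mid-gestation, used at passage 2). Rescue animals were Tug1-/- and also carried a doxycycline-inducible Tug1 transgene, tg(Tug1), whose isoform is without a stretch of the 5′ end. They also carried the widely expressed activator CAG-rtTA3, and were kept on doxycycline from the time of mating. A brain comparison from libraries outside the series is in the same table, and its number of animals is not given in the labels or methods used here. The groups of the series used here are given as on a mixed C57BL/6J and 129S6 background. Rescue animals also descend from the activator strain, which the study's methods give as B6N.FVB(Cg), so their background may differ from that of Tug1-/- animals. The background of the brain libraries is not given in the labels or methods used here. For testes the labels give no Neo cassette in wild type, and both Neo and LacZ in Tug1-/- and rescue animals, so by the labels the cassette and the deletion cannot be told apart there. The study's methods, however, describe removal of the neomycin gene with a Cre strain before the colony was expanded. The other tissues and the MEFs of both genotypes are labelled N3-C57BL/6J with no Neo. The ages of the animals behind the tissue samples are not given in the labels or methods used here. Testes from F1 hybrids with CAST/EiJ are not analysed here.

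The values are in TPM, a unit of transcript abundance that corrects read counts for gene length and library size, so levels of different genes can be set side by side. Expression is given as 1 mean per group, with no values of single animals. The tables also hold columns of the authors' own comparisons, with errors and p-values, which were not used. From the means alone no standard deviation and no test between groups could be computed, and the text gives ratios of means. A ratio is log2 of (mean + 0.1 TPM) over (mean + 0.1 TPM), which slightly understates ratios of low genes. A gene was counted when either mean reached 1 TPM, and a ratio was set against a limit of 1.5-fold. For each count of members past a limit, the share of all counted genes past it in the same comparison is given. In the table without testes, a mean normalized read count per gene over both genotypes shows the depth. From it an error that covers read counting only was computed for each ratio outside testes and brain. That error leaves out the spread between animals, which was not computed here.

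Tug1 marked the genotypes. Its mean in testes was 40.1 TPM without and 0.885 TPM with the deletion, and rescue testes held 1.60 TPM. In the other 7 tissues Tug1-/- means were between 0.0825% and 0.512% of wild type, in liver and MEFs respectively. Defining markers matched the tissue labels in wild type: Prm1 stood at 14300 TPM in testes, Snap25 at 1530 TPM in brain, the lens gene Cryaa at 12400 TPM in eyes, Myh6 at 4690 TPM in heart, Alb at 97000 TPM in liver, Col1a1 at 6580 TPM in MEFs, Pbsn at 66000 TPM in prostate and Cd79a at 1290 TPM in spleen. Of the prostate markers Msmb (9.65 TPM) and Sbp (1.64 TPM) were low. In Tug1-/- prostate Msmb was more than 1.5-fold higher, at 18.3 TPM, while Pbsn (58600 TPM) and Sbp (1.75 TPM) stayed within 1.5-fold of wild type. The summed mean normalized count was 17600000 reads in brain and between 38700000 and 48300000 in the other 6 tissues of that table. The 10 highest genes held 50% of all TPM in wild-type heart, against 7.61% to 28.1% in the other wild-type means, and a large share taken by a few genes lowers the TPM of all others.

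None of the 9 members passed the limit of 1.5-fold in any comparison of Tug1-/- with wild type, nor in the comparison of rescue with Tug1-/- testes. The shares of all counted genes past that limit were 6.26% in testes, 4.65% for rescue, 10.5% in spleen, 7.99% in prostate, 7.73% in MEFs, 6.02% in liver, 4.56% in heart, 7.87% in eyes and 6.14% in brain. With shares of this size, 0 of 9 is near the background. All 9 members reached 1 TPM in 8 of the 9 comparisons, and in MEFs Cbx7 did not. At a lower limit, a ratio of means of 5 to 4, the counts were 2 in liver, 1 in MEFs and 3 in spleen, and 0 elsewhere. Beside them stood 17.5% of counted genes in liver, 21.1% in MEFs and 27.0% in spleen, and 14.4% in testes, 11.8% for rescue, 18.7% in prostate, 12.6% in heart, 21.6% in eyes and 12.9% in brain. The 6 member ratios past the lower limit belonged to Ezh2, Cbx7 and Cbx8 in spleen, Cbx2 and Cbx8 in liver, and Cbx2 in MEFs. The other 66 of the 72 ratios to wild type were smaller with the added 0.1 TPM, among them that of Cbx7 in MEFs, a gene not counted there, whose means of 0.553 and 0.715 TPM lie just past the lower limit without it. In bulk RNA, fewer cells of a type and less RNA per cell cannot be told apart, which holds for each ratio given here.

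**Figure D1:**
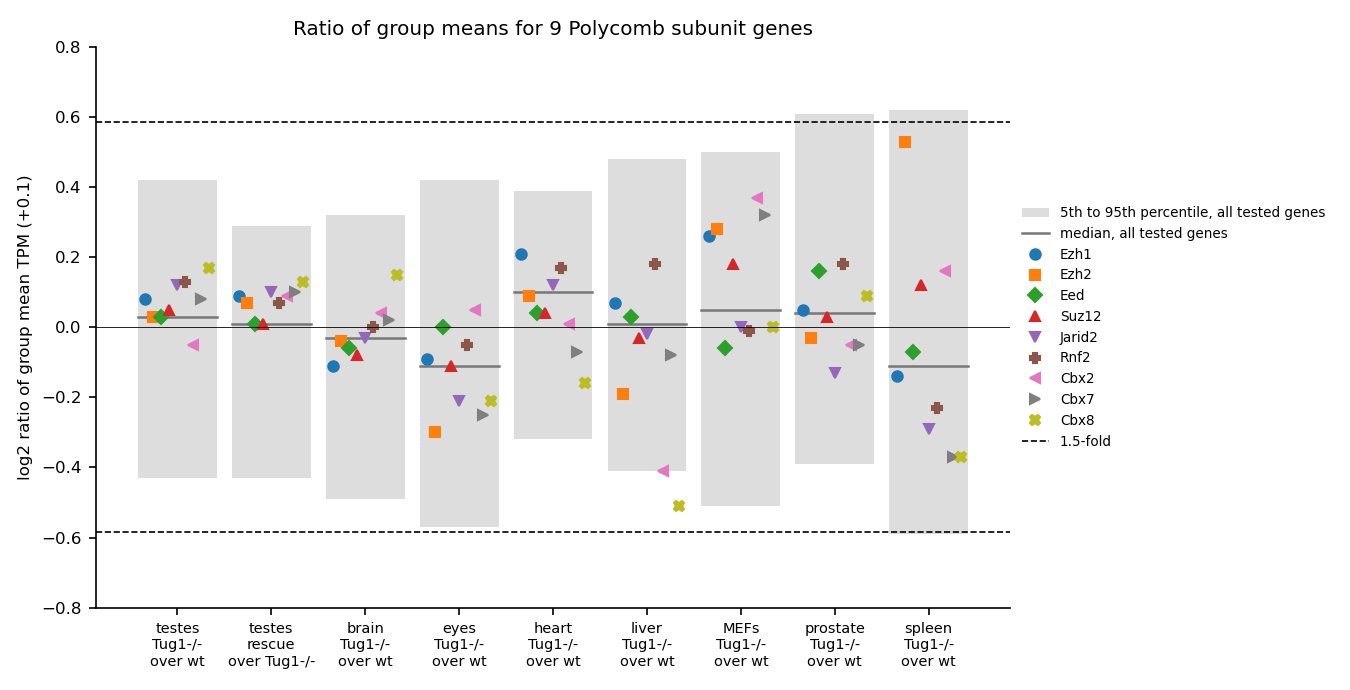
Each symbol is the log2 ratio of group mean TPM (+0.1) for 1 of the 9 genes, by comparison, with the dashed lines at 1.5-fold and the grey box spanning the 5th to 95th percentile of all counted genes. All 81 symbols lie between the dashed lines, Ezh2 in spleen (0.53) and Cbx8 in liver (-0.51) lie closest to them, and the testis, rescue and brain symbols lie within 0.17 of 0.

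In testes the PRC2 genes were at nearly the same mean in the 3 groups. Ezh2, the catalytic subunit of dividing cells, stood at 36.6 TPM in wild type, 37.3 TPM in Tug1-/- and 39.2 TPM in rescue. Ezh1, its relative in resting cells, stood at 13.3, 14.1 and 15.0 TPM in the same order. The core subunit Eed had 23.7, 24.2 and 24.4 TPM, and Suz12 had 32.6, 33.9 and 34.2 TPM. Jarid2 had 16.4, 17.8 and 19.2 TPM. Of the PRC1 genes, the ubiquitin ligase Rnf2 had 42.4, 46.3 and 48.7 TPM, and the chromobox gene Cbx7 had 22.3, 23.5 and 25.2 TPM. Cbx2 had 3.68, 3.55 and 3.78 TPM, and Cbx8, the lowest member in testes, 1.41, 1.59 and 1.74 TPM. From wild type to Tug1-/- the ratios ran from -0.05 (Cbx2) to 0.17 (Cbx8), with a median of 0.08 against 0.03 for all counted genes. From Tug1-/- to rescue they ran from 0.01 to 0.13, with a median of 0.09 against 0.01. Both comparisons use the same Tug1-/- libraries, so they are not independent. Lists of testis cell markers moved beside these values: 16 of 17 somatic markers had a higher mean in Tug1-/- than in wild type (median log2 ratio 0.35). The Leydig markers Insl3 (56.9 to 144 TPM), Cyp11a1 (43.2 to 75.5 TPM) and Star (41.5 to 68.7 TPM) passed 1.5-fold. In rescue, Insl3 (65.5 TPM), Star (44.5 TPM) and Hsd3b6, from 147 in Tug1-/- to 67.1 TPM, stood more than 1.5-fold below Tug1-/-. The other Leydig markers did not pass the limit there, with 83.0 TPM of Cyp11a1 (log2 ratio 0.14) and 315 TPM of Cyp17a1, against 341 TPM in Tug1-/- (-0.12). Of all 17 somatic markers 6 were higher and 11 lower in rescue (median -0.04). In a list of erythroid genes, written after the values were seen, 4 of the 8 counted in testes were higher and 4 lower in Tug1-/- than in wild type. Those more than 1.5-fold lower were Hbb-bs (16.6 to 9.18 TPM), Hba-a1 (6.36 to 3.28 TPM) and Hbb-bt (3.71 to 2.03 TPM). The 16 germ cell markers had a median log2 ratio of 0.06 from wild type to Tug1-/-. All 5 spermatocyte markers were higher in Tug1-/- (median 0.10), while of the 5 spermatid markers 2 were higher and 3 lower (median -0.06). Of the germ cell markers only the spermatogonial receptor Gfra1 passed the limit, with 11.1, 3.84 and 4.0 TPM in wild type, Tug1-/- and rescue. From Tug1-/- to rescue, where all 9 members had higher means, so did all 6 spermatogonial markers (median log2 ratio 0.22, highest 0.31). All 5 Sertoli markers did too (median 0.16, highest 0.56), and none of either kind passed the limit. Of the 5 spermatocyte markers 4 were higher and 1 lower (median 0.03), and of the 5 spermatid markers 1 was higher and 4 lower (median -0.04). The part of these cell types in the members' ratios was not tested.

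Across tissues the members differed far more than between genotypes. The testes are in a table of their own, apart from the other 7 tissues, and the brain libraries come from elsewhere. The study's methods describe 1 way of mapping, counting and computing TPM, and whether all tissues were processed together is not given. The orders below thus join values from separate tables and sources. Neighbours in an order that lie within 1.5-fold of each other are not set apart, since no spread was computed.

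**Figure D2:**
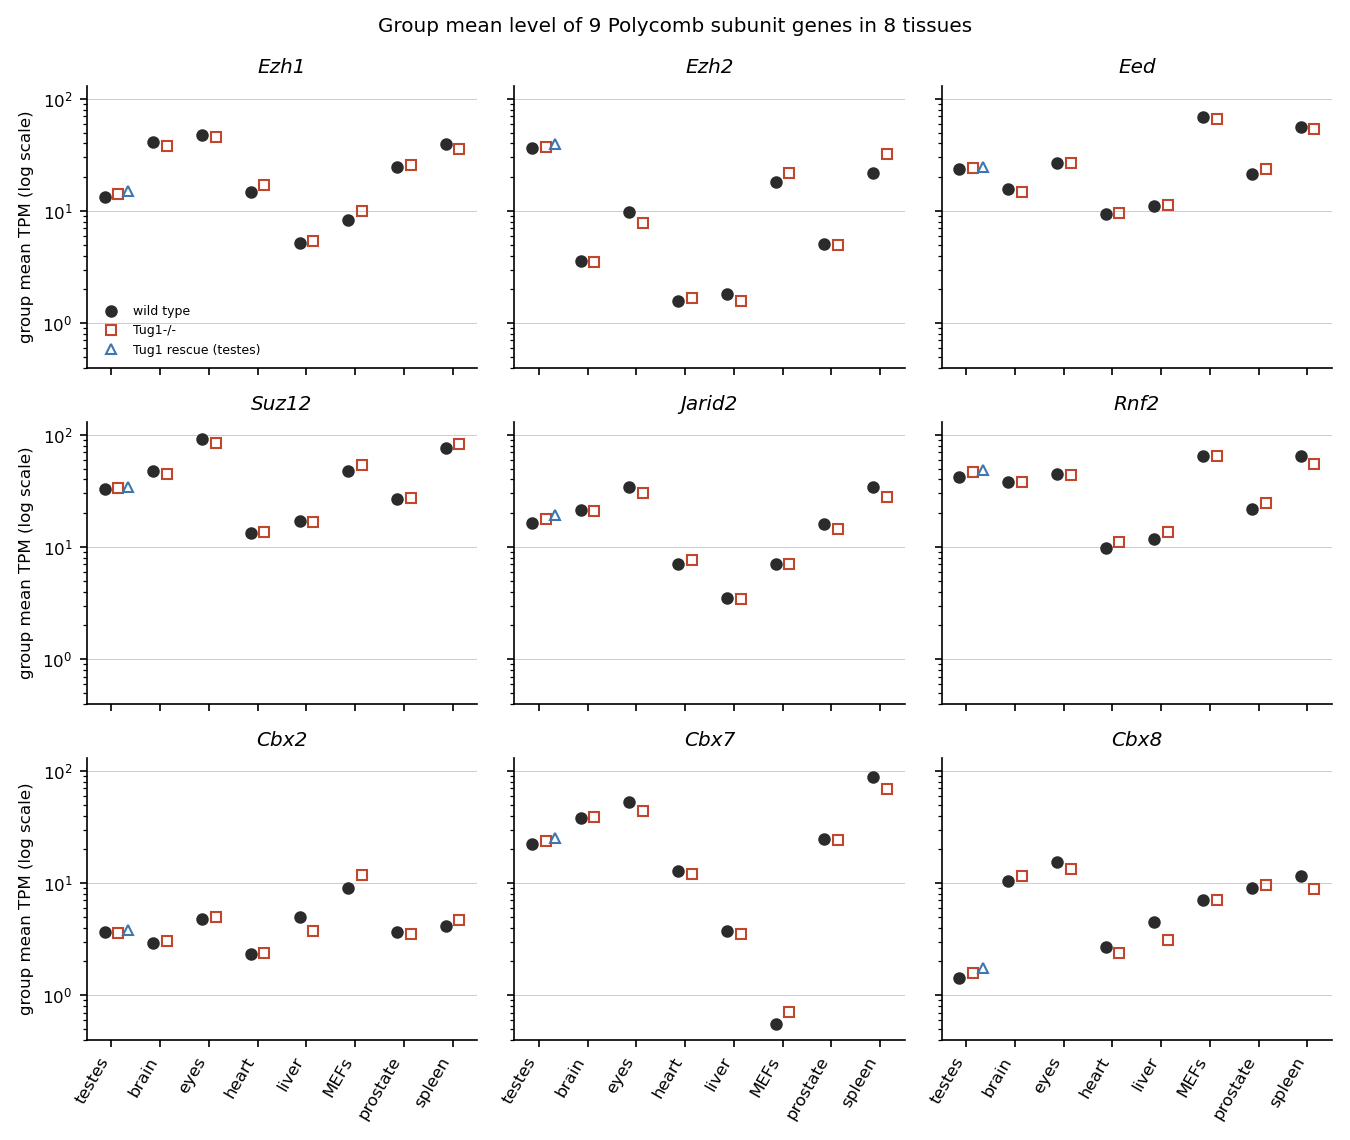
Each panel shows 1 gene, with the group mean TPM on a log axis for wild type (filled circles), Tug1-/- (open squares) and, in testes, rescue (open triangles). The tissue changes the height of the symbols by 3.85-fold (Cbx2) to 160-fold (Cbx7) in wild type, while the 2 genotypes of a tissue nearly coincide.

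Ezh2 spanned 23.0-fold in wild type. Its mean was highest in testes at 36.6 TPM, followed by spleen (22.0) and MEFs (18.1), which lay within 1.5-fold of each other, then eyes (9.71), prostate (5.06), brain (3.59), liver (1.82) and heart (1.59 TPM). Its relative Ezh1 spanned 9.34-fold with another order. Ezh1 was at 48.0 TPM in eyes, 41.1 in brain and 39.6 in spleen, which were not set apart, then 24.9 in prostate, 14.8 in heart, 13.3 in testes, 8.37 in MEFs and 5.13 TPM in liver. The ratio of Ezh1 to Ezh2 therefore ran from 11.4 in brain and 9.28 in heart through 4.94 in eyes, 4.92 in prostate, 2.82 in liver and 1.80 in spleen to 0.463 in MEFs and 0.365 in testes. Only the testes and the cultured fibroblasts held more Ezh2 than Ezh1 RNA among these 8 means. In Tug1-/- the ratio was 10.9 in brain, 10.1 in heart, 5.76 in eyes, 5.23 in prostate, 3.41 in liver, 0.457 in MEFs and 0.378 in testes. In spleen it was 1.13, the only tissue where it moved by more than 1.5-fold from the wild-type value.

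**Figure D3:**
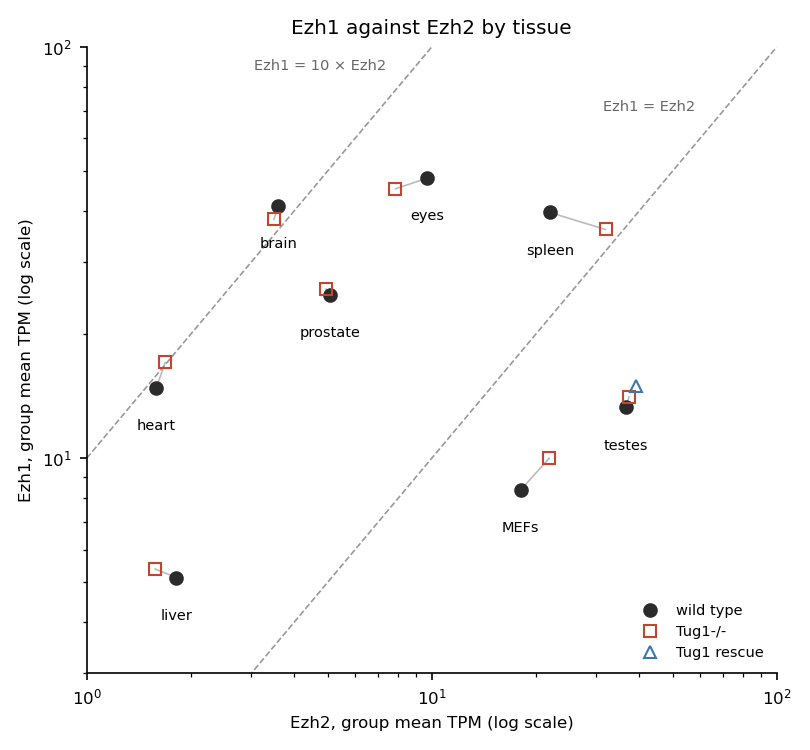
Group mean TPM of Ezh1 (vertical) against Ezh2 (horizontal), both on log axes, for wild type (filled circles), Tug1-/- (open squares) and rescue testes (open triangle), with dashed lines where Ezh1 equals Ezh2 and where it is 10 times Ezh2. Testes and MEFs lie below the line of equal levels, brain lies near the upper line at a ratio of 11.4, and the spleen squares are moved toward more Ezh2 (22.0 to 31.9 TPM).

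The shared core genes of PRC2 had orders of their own. Eed spanned 7.36-fold, from 69.1 TPM in MEFs and 56.6 in spleen, not set apart, through 26.6 in eyes, 23.7 in testes, 21.2 in prostate, 15.6 in brain and 11.1 in liver to 9.39 TPM in heart. Below the step from spleen to eyes, each tissue lay within 1.5-fold of the next. Suz12 spanned 6.90-fold and had 91.3 TPM in eyes and 76.4 in spleen, then 47.7 in brain, 47.5 in MEFs, 32.6 in testes, 27 in prostate, 17.0 in liver and 13.2 TPM in heart. Jarid2 spanned 9.87-fold. It had 34.6 TPM in eyes and 34.3 in spleen, 21.5 in brain, 16.4 in testes, 15.9 in prostate, 7.08 in MEFs, 7.05 in heart and 3.51 TPM in liver. MEFs thus held the highest Eed mean and a low Jarid2 mean.

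Rnf2, which gives PRC1 its ubiquitin ligase activity, had a flat upper range. MEFs (64.9 TPM), spleen (64.1), eyes (45.2), testes (42.4) and brain (37.7) each lay within 1.5-fold of the next, and prostate (22.0), liver (11.9) and heart (9.86 TPM) lay lower, for a span of 6.59-fold. Cbx7, a chromobox reader of the methyl mark, had the widest span of the 9, 160-fold. It was at 88.5 TPM in spleen, 52.4 in eyes, 38.1 in brain, 24.9 in prostate, 22.3 in testes, 12.7 in heart and 3.70 in liver, and at 0.553 TPM in MEFs. The MEF value rests on a mean normalized count of 42.3 reads. Cbx2 had the narrowest span, 3.85-fold, with 9.03 TPM in MEFs set apart from liver at 5.00 TPM. The other values were 4.81 in eyes, 4.15 in spleen, 3.68 in testes, 3.66 in prostate, 2.95 in brain and 2.34 TPM in heart. Cbx8 spanned 11-fold and had 15.5 TPM in eyes, 11.5 in spleen, 10.4 in brain, 8.98 in prostate and 7.0 in MEFs, each within 1.5-fold of the next. It was then at 4.48 in liver, 2.69 in heart and 1.41 TPM in testes.

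Of the summed TPM of the chromobox members Cbx2, Cbx7 and Cbx8, Cbx7 held 84.9% in wild-type spleen and 81.4% in testes. It held 74.1% in brain, 72.0% in eyes, 71.6% in heart and 66.3% in prostate. In liver the members were more even, with 37.9% for Cbx2, 34% for Cbx8 and 28.1% for Cbx7. In MEFs Cbx7 held 3.34%, and Cbx2 (54.4%) and Cbx8 (42.2%) made up nearly all of the sum. Cbx2 had its smallest share in spleen, 3.99%, and Cbx8 in testes, 5.14%. In Tug1-/- the Cbx7 share was 83.5% in spleen, 82.0% in testes, 33.7% in liver and 3.68% in MEFs.

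**Figure D4:**
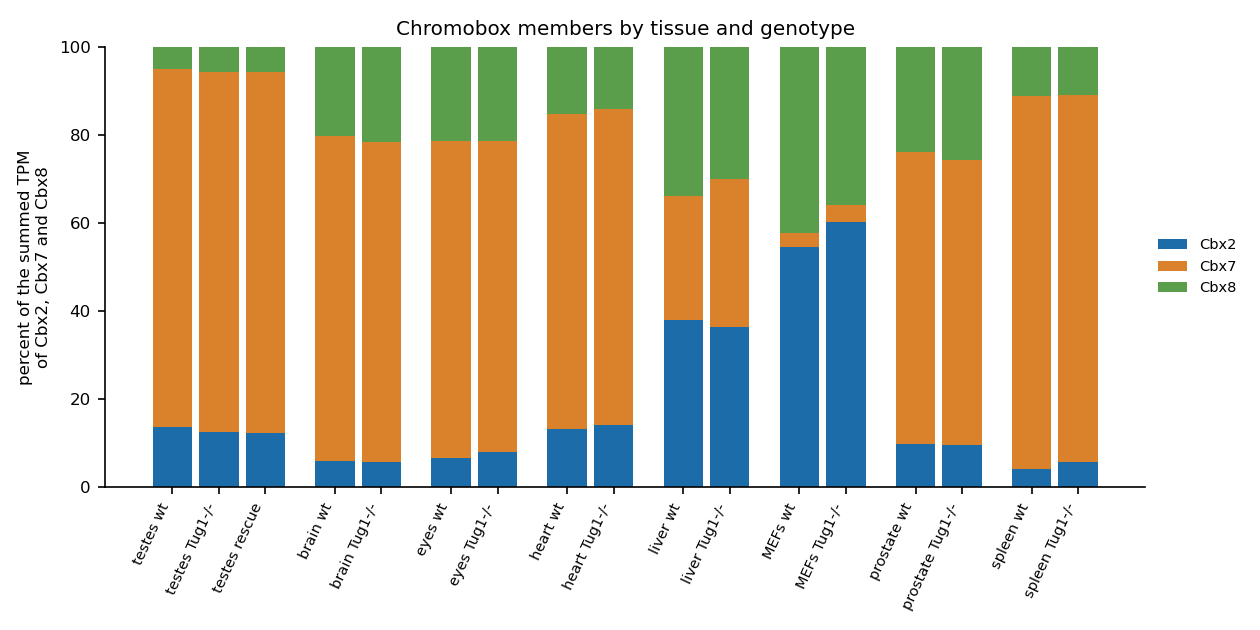
Stacked bars give the percent of the summed TPM of Cbx2, Cbx7 and Cbx8 held by each, for each tissue in wild type (wt), Tug1-/- and, in testes, rescue. Cbx7 (orange) fills 84.9% of the wild-type spleen bar and 3.34% of the wild-type MEF bar, and between genotypes the largest difference is in Cbx8 of MEFs (42.2% to 36.1%).

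The largest member ratio to wild type was that of Ezh2 in spleen. Its mean went from 22.0 TPM in wild-type to 31.9 TPM in Tug1-/- spleens, a log2 ratio of 0.53 with an error from counting alone of 0.02 at a mean normalized count of 2700. A ratio at least this large was seen for 12.2% of the counted genes of the spleen. The median of all counted genes in spleen was -0.11, and relative to it the Ezh2 ratio was 0.64, past 1.5-fold. Other spleen members had lower Tug1-/- means: Cbx7 went from 88.5 to 68.6 TPM (-0.37, or -0.26 relative to the median), Cbx8 from 11.5 to 8.88 TPM (-0.37, or -0.26), Jarid2 from 34.3 to 28.0 TPM (-0.29, or -0.18) and Rnf2 from 64.1 to 54.5 TPM (-0.23, or -0.12). Ezh1 (39.6 and 36 TPM), Eed (56.6 and 54.0 TPM), Suz12 (76.4 and 82.9 TPM) and Cbx2 (4.15 and 4.67 TPM) had ratios between -0.14 and 0.16. In all, 3 members had higher and 6 lower means in Tug1-/- spleen, with a member median of -0.14 beside the -0.11 of all counted genes.

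Ezh2 in spleen stood beside genes of the cell division cycle and of other cell types. All 15 genes of a proliferation list had higher means in Tug1-/- spleen, with a median log2 ratio of 0.79 and a range of 0.42 to 1.05, and 9 passed 1.5-fold. They were the division marker Mki67 (117 to 233 TPM), the topoisomerase Top2a (54.6 to 94.8), the cyclins Ccna2 (37.3 to 75.1) and Ccnb1 (15.5 to 29.0), the mitotic kinase Cdk1 (20.6 to 37.1), the survivin gene Birc5 (25.7 to 52.2), the nucleotide synthesis genes Rrm2 (82.0 to 170) and Tyms (10.3 to 19.0), and the replication helicase gene Mcm2 (35.9 to 57.2 TPM). The 2 highest means of the list belonged to Pcna, which went from 210 to 281 TPM in spleen, and to Mki67. In further lists, written after these values were seen, 10 of 10 erythroid genes were more than 1.5-fold higher in Tug1-/- spleen, with log2 ratios of 0.82 to 1.33 and a summed level of 24900 against 45100 TPM. All 3 granulocyte precursor genes were too (44.4 against 146 TPM summed). So were 8 of 8 genes of acinar cells of the pancreas, a gland that lies next to the spleen, and their sum was 75.0 against 9140 TPM. The 4 B cell genes had lower means (4310 against 3240 TPM summed), and the 4 T cell genes had log2 ratios of -0.21 to 0.00. The liver gene Alb went from 16.4 TPM in wild-type to 0.0843 TPM in Tug1-/- spleen. Without the erythroid, granulocyte and pancreas genes in the TPM total, of which they made 2.51% in wild type and 5.44% in Tug1-/-, the Ezh2 ratio was 0.58, just under the limit. The part of these cell types in the Ezh2 ratio was not tested.

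In the other comparisons the proliferation list and Ezh2 were set side by side. The medians of the list are not taken relative to that of all counted genes, so they compare with the first Ezh2 value given for each tissue. In MEFs 14 of 15 genes of the list had higher means in Tug1-/- (median 0.30), and Ezh2 went from 18.1 to 21.9 TPM. Its log2 ratio was 0.28 with a counting error of 0.03, or 0.23 relative to the MEF median of 0.05. In eyes 14 of 15 had lower means (median -0.19), and Ezh2 went from 9.71 to 7.85 TPM (-0.30, counting error 0.04, or -0.20 relative to the median of all counted genes in eyes, -0.11). In heart all 11 genes that reached 1 TPM had higher means (median 0.26) beside 1.59 and 1.69 TPM of Ezh2 (0.09, or -0.02 relative to the heart median of 0.10). In liver 7 of 9 had higher means (median 0.12) while Ezh2 went from 1.82 to 1.58 TPM (-0.19, counting error 0.08, or -0.20 relative to the liver median of 0.01). In testes (14 of 15 higher, median 0.09), rescue (14 of 15 higher, median 0.08), brain (5 of 11 higher, median -0.02) and prostate (8 of 15 higher, median 0.03), Ezh2 ratios were 0.03, 0.07, -0.04 and -0.03, or 0.00, 0.06, -0.02 and -0.07 relative to the median of all counted genes. Except in spleen, none of the counted genes of the list passed 1.5-fold in any comparison.

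**Figure D5:**
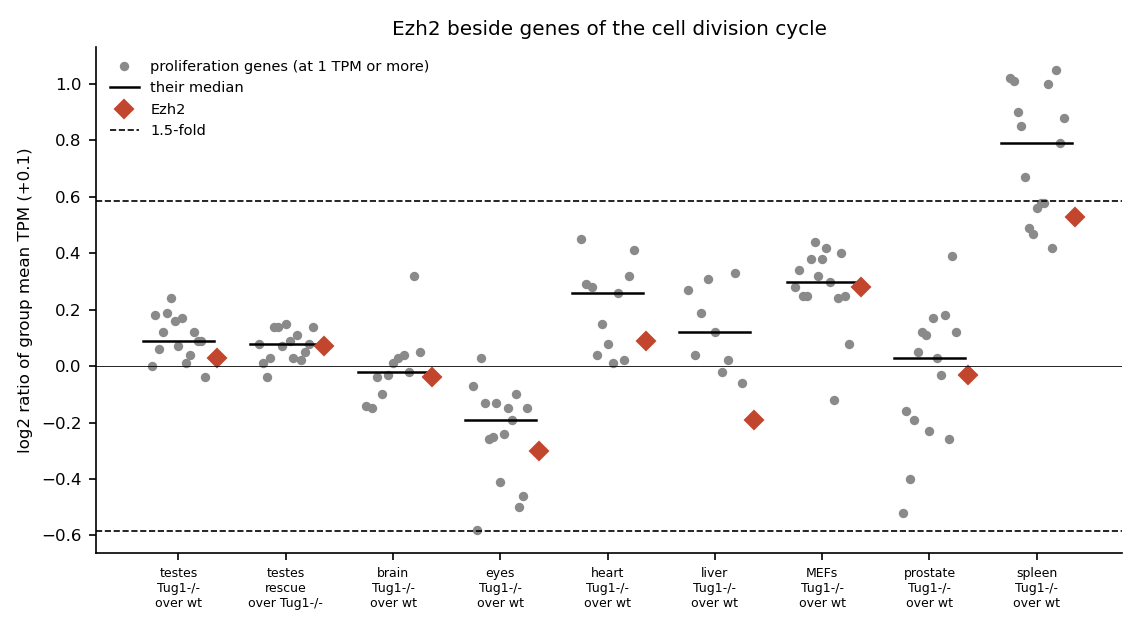
Log2 ratios of group mean TPM (+0.1) of the proliferation genes at 1 TPM or more (grey points, black bar at their median) and of Ezh2 (red diamond), by comparison, with dashed lines at 1.5-fold. The spleen points lie between 0.42 and 1.05 with Ezh2 at 0.53, the MEF diamond (0.28) lies near its list's median of 0.30, and the liver diamond (-0.19) lies below all points of its list.

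Promoters of members were searched for the DNA word of E2F factors, which switch on genes for the S phase and are known regulators of Ezh2 and Eed. The words TTTCGCGC, TTTGGCGC, TTTCCCGC and TTTGCCGC were looked for on both strands in 300 bases around each RefSeq start (GRCm38.p6), 250 before and 50 after. Promoters were at hand for 8 of the 9 genes, all but Cbx2, with 9 promoters in all, since Jarid2 has 2, and 2 of the 9 promoters held a word, 1 match each, against 2.26% of all 32851 promoters in the table. The matches are printed here 5′ to 3′ on the gene's strand with the word in capitals, since Ezh2 is the member whose ratio was largest beside the proliferation genes.
Ezh2: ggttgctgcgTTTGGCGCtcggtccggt
Suz12: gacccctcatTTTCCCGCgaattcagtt
The Ezh2 stretch is chr6:47595010-47595037 on the minus strand, and its word begins at base 4 counted from the RefSeq start. The deposited gene coordinates begin Ezh2 further upstream, at 47595341, so the word lies inside that gene model. The Suz12 stretch is chr11:79992877-79992904 on the plus strand, and its word begins 219 bases before the start. No word was found in these windows for Ezh1, Eed, Jarid2, Rnf2, Cbx7 and Cbx8. The windows of Cbx7 and Jarid2 also lie inside the deposited gene models, downstream of their starts. The promoters of the members were rich in CpG, with 17 (Eed) to 41 (Suz12) CpG in 300 bases, where the median of all promoters was 7 and 31.4% held 17 or more. Each of the searched words itself holds a CpG. The 2.26% is thus a share over promoters that mostly hold fewer CpG, and the share among promoters as rich in CpG was not computed. A match in sequence is a description and not a measured binding site.

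In liver the lower members were a pair of neighbours on chromosome 11. Cbx8 went from 4.48 TPM in wild type to 3.11 TPM in Tug1-/-, a log2 ratio of -0.51 with a counting error of 0.08, and Cbx2 from 5.00 to 3.74 TPM, -0.41 with a counting error of 0.07. Ratios at least as large were seen for 7.74% and 12.0% of counted liver genes. Cbx2 (chr11:119022962-119031270, plus strand) and Cbx8 (chr11:119036305-119040969, minus strand) lie 5.03 kb apart in GRCm38. Tug1 is on the same chromosome at chr11:3639785-3649673, 115 Mb away. In spleen the ratios of Cbx2 and Cbx8 were 0.16 and -0.37, and in MEFs 0.37 and 0.00. The other 7 members in liver had ratios from -0.19 (Ezh2) to 0.18 (Rnf2, 11.9 to 13.5 TPM). Beside them, all 4 macrophage markers had higher means in Tug1-/- liver (median log2 ratio 0.61) and the 3 liver markers had a median of 0.21, and their part in the chromobox ratios was not tested.

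In MEFs, Cbx2 went from 9.03 to 11.7 TPM (log2 ratio 0.37, counting error 0.06) and Ezh1 from 8.37 to 10.0 TPM (0.26, counting error 0.04). Suz12 went from 47.5 to 54.0 TPM (0.18). Cbx7 was low in both genotypes, with 0.553 and 0.715 TPM, and its ratio of 0.32 had a counting error of 0.18. Eed (69.1 and 66.2 TPM), Jarid2 (7.08 and 7.10 TPM), Rnf2 (64.9 and 64.4 TPM) and Cbx8 (7.0 and 7.01 TPM) had ratios of -0.06 to 0.00. The median of the 8 counted members, without Cbx7, was 0.09 and that of all counted genes 0.05. Of the 4 macrophage markers in MEFs, Lyz2 (183 to 342 TPM) and Adgre1 (19.8 to 29.8 TPM) were more than 1.5-fold higher in Tug1-/-, while Cd68 (45.4 to 33.4 TPM) and Csf1r (30.6 to 25 TPM) had lower means, and their part in the members' ratios was not tested.

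Brain, eyes, heart and prostate gave smaller ratios. In brain they ran from -0.11 (Ezh1, 41.1 to 38.1 TPM) to 0.15 (Cbx8, 10.4 to 11.5 TPM), and Rnf2 had 37.7 TPM in both genotypes. In prostate, where the Tug1-/- mean comes from 2 animals, they ran from -0.13 (Jarid2, 15.9 to 14.5 TPM) to 0.18 (Rnf2, 22.0 to 24.9 TPM). In heart they ran from -0.16 (Cbx8, 2.69 to 2.40 TPM) to 0.21 (Ezh1, 14.8 to 17.1 TPM). In eyes 7 of 9 were lower in Tug1-/-, among them Cbx7 (52.4 to 44.1 TPM, -0.25), Jarid2 (34.6 to 30.0 TPM, -0.21) and Cbx8 (15.5 to 13.4 TPM, -0.21), and the member median of -0.11 equalled that of all counted genes. Blood genes differed between the genotypes in eyes, where the summed level of the erythroid genes went from 787 TPM in wild type to 2210 TPM in Tug1-/- and 4 of the 6 counted genes were more than 1.5-fold higher, in prostate, where it went from 171 to 293 TPM and 3 of the 5 counted genes were more than 1.5-fold higher, and in heart, where it went from 42900 to 33700 TPM with 0 of 8 past the limit. In brain it was 326 and 346 TPM. In heart all 4 B cell genes were more than 1.5-fold lower in Tug1-/- (40.1 against 18.4 TPM summed, median log2 ratio -1.11), as was the T cell gene Trbc2 (3.96 to 1.94 TPM), the 1 counted gene of the T cell list. All 4 macrophage markers had higher means in Tug1-/- prostate (median 0.53, 2 past the limit), eyes (median 0.27), heart (0.25) and brain (0.11), with 0 past the limit in eyes, heart and brain. The part of these cell types in the members' ratios was not tested. Over the 8 tissues Eed had the narrowest range of ratios among the 9 genes, -0.07 to 0.16, and Ezh2 the widest, -0.30 to 0.53 (relative to each tissue's median, Ezh2 ran from -0.20 in eyes and liver to 0.64 in spleen).

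The members were also set beside 33 other Polycomb and histone H3 lysine 27 genes: further subunits of PRC2 and PRC1, the histone H2A deubiquitinase PR-DUB, and the demethylases Kdm6a and Kdm6b. Between 30 and 33 of them reached 1 TPM in each comparison. In MEFs 1 passed 1.5-fold, and in the other 8 comparisons 0 did. It was Phf19, which links PRC2 to methylated lysine 36 of histone H3, which went from 2.35 to 3.70 TPM (log2 ratio 0.64). The median log2 ratio of those counted was 0.05 in testes, 0.04 for rescue, -0.11 in spleen, 0.03 in prostate, 0.16 in MEFs, 0.00 in liver, 0.10 in heart, -0.15 in eyes and -0.07 in brain. The medians of all counted genes were 0.03, 0.01, -0.11, 0.04, 0.05, 0.01, 0.10, -0.11 and -0.03 in the same order. The 2 highest were the histone chaperone Rbbp7, with prostate means of 380 and 388 TPM, and Cbx6, at 231 TPM in both genotypes in brain.

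Members that resembled each other over the 8 wild-type means were compared by Pearson's r of log2(TPM + 0.1), as a description over 8 tissue means, of which 7 come from 1 table and that of testes from another. The values were 0.93 for Ezh1 with Jarid2, 0.84 for Ezh1 with Cbx7, 0.89 for Eed with Rnf2, 0.89 for Suz12 with Rnf2 and 0.86 for Ezh2 with Rnf2. They were 0.19 for Ezh1 with Ezh2 and -0.64 for Cbx2 with Cbx7. With the 15 proliferation genes the median r was 0.90 for Eed, 0.87 for Ezh2 and 0.79 for Rnf2, beside 0.13 for Ezh1 and -0.01 for Cbx7. The median over all 13640 protein-coding genes with a value in each tissue was 0.37 for Eed, 0.31 for Ezh2, 0.48 for Rnf2, 0.42 for Ezh1 and 0.22 for Cbx7.

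Of these 13640 genes, the 3 most like Ezh2 were the mitotic kinesin gene Kif20b, the ribosome assembly gene Bms1 and the RNA-binding protein gene Dazap1, each at 0.99. For Rnf2 they were Dhx38, the mismatch repair gene Msh6 and the poly(A) polymerase gene Papola, each at 0.99, and for Eed the nucleolar genes Ddx21 and Fbl and the gene Tpm3-rs7, each at 0.98. Ezh1 was most like Ccdc28b (0.99), Mapk1ip1 (0.98) and Hsdl1 (0.97), Suz12 most like Naa16, Zbtb6 and Brwd3 (each 0.98), and the genes most like Jarid2 included Tmem80 and Clk4 (each 0.98). Cbx7 was most like Rnf167 (0.97), N4bp3 (0.97) and the carbonic anhydrase gene Car2 (0.95), and Cbx8 most like Zfp119a, Pdcl and Lypla2 (each 0.97). With brain left out, 2 of the 3 genes stayed for Ezh1, Ezh2, Jarid2 and Cbx7, 1 for Rnf2, and 0 for Eed, Suz12 and Cbx8. Cbx2 spanned less than 4-fold and was not matched.

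The files place Ezh1 at chr11:101191115-101226463, Suz12 at chr11:79993106-80034123, Ezh2 at chr6:47530139-47595341, Eed at chr7:89954654-89980983, Jarid2 at chr13:44729474-44921643, Rnf2 at chr1:151458004-151500955 and Cbx7 at chr15:79915807-79971119 (GRCm38). Suz12 is on the plus strand, as are Jarid2 and Cbx2, and the others are on the minus strand. Those on the chromosome of Tug1 lie 76.3 Mb (Suz12), 97.6 Mb (Ezh1) and 115 Mb (Cbx2 and Cbx8) from its start. The library kit does not mark strand, so reads from exons that overlap cannot be told apart. Over whole gene spans, introns included, Suz12 shares 12515 of its 41018 bases with Gm26563. Ezh2 shares 5039 of 65203 bases with Gm26625, and both of these genes are on the opposite strand. How much of the overlap lies in exons, and how many reads it touches, was not computed. Eed, Rnf2 and Cbx7 overlap other genes over at most 3029 bases, and Ezh1, Jarid2, Cbx2 and Cbx8 overlap none in the tables.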

How the data were processed

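The authors aligned reads to GRCm38 (mm10) with STAR, counted uniquely mapped reads per GENCODE gene with featureCounts, dropped genes below 3 reads in every replicate and compared groups with DESeq2. The submitters' processing notes also name CASAVA 1.8.2. The deposited values used here are the authors' group mean TPM, in a testes table and in a table of 7 further tissues, and, in the latter, a signal column of mean normalized read counts over both genotypes. The deposited tables also hold the authors' own fold changes, standard errors, statistics and p-values, which were not used. Depth in testes is unknown here.

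Ratios were log2((mean + 0.1)/(mean + 0.1)) over genes with at least 1 TPM in either mean, with a limit of 1.5-fold. The counting error was taken from the mean normalized count split by the group means and sample numbers, for n of 3 against 3 (prostate 3 against 2). It covers counting error only. Samples were grouped by their source labels, 46 of 52 lying behind the means used. No values of single samples are in the tables, so no test was run and no p-value is given. Scripts were checked on simulated means in which 200 genes differed.

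The members and gene lists were chosen with earlier results of these data known. Named are all members, the genes of the Polycomb and proliferation lists past the limit, the 2 highest of each of these lists, and the 3 genes most like each member that spans at least 4-fold. The tissue and testis marker lists, being checks, are given by the markers that bear on a result. The erythroid, granulocyte, pancreas, B cell and T cell lists were written after the values were seen and are given mostly as counts and sums. A few genes that these rules or lists would name are not reported here, and list counts leave them out. Alternatives were pseudocounts of 0.01 and 1 TPM, limits of 5 to 4 and 2-fold, no minimum, a minimum of 5 TPM, centring on the median, TPM rescaled over nuclear protein-coding genes, protein-coding genes only, Tug1-/- means and leaving out brain. Python 3.11.15 with numpy 2.4.6, pandas 2.3.3 and matplotlib 3.10.9 was used. Promoters are from RefSeq.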

Additional observations from a re-analysis of the deposited data

How the results depend on the processing

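No paired analysis was possible because expression is given only as group means, with no value per animal, and the authors' own test columns were not used. For the same reason no sample could be left out, and the spread between animals limits every ratio by an amount not computed here. The count of members past the limit was 0 in each comparison and stayed 0 under 78 of 82 combinations of comparison and setting, 1 of which, the spleen rescaling, was chosen after seeing the data. It became 2 in liver, 1 in MEFs and 3 in spleen at a limit of 5 to 4, and 1 in spleen (Ezh2, 0.64) when ratios were centred on the median of counted genes. Of 333 recomputed member ratios, 332 stayed on the same side of 1.5-fold.

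The number of all counted genes past 1.5-fold was 1401 in testes, 1031 for rescue, 1807 in spleen, 1242 in prostate, 1146 in MEFs, 730 in liver, 639 in heart, 1551 in eyes and 1088 in brain, and it moved with the setting. In that order it was 819, 522, 1118, 738, 577, 429, 335, 861 and 603 with a pseudocount of 1 TPM. A limit of 5 to 4 gave 3233, 2622, 4666, 2905, 3124, 2125, 1764, 4249 and 2288, and a limit of 2-fold 623, 434, 612, 519, 353, 230, 234, 420 and 515. With no minimum it was 3452, 3340, 4047, 3149, 2820, 2046, 2047, 3570 and 2999, and with a minimum of 5 TPM 452, 206, 851, 387, 346, 308, 190, 606 and 209. Protein-coding genes alone gave 797, 400, 961, 611, 603, 475, 302, 671 and 239. Rescaling over nuclear protein-coding genes gave 1040 in heart. Centring turned the split into higher and lower from 628 and 923 to 823 and 639 in eyes, from 291 and 348 to 198 and 449 in heart (326 and 714 rescaled), and from 932 and 875 to 1168 and 556 in spleen.

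With TPM rescaled over nuclear protein-coding genes, liver took the place of heart as the lowest tissue for Ezh2 (a span of 19.7-fold), Eed (5.85), Suz12 (5.4) and Rnf2 (5.88), and brain did for Cbx2 (2.71). Spleen then passed eyes as the highest for Jarid2 (10.7) and MEFs as the highest for Rnf2. In Tug1-/- means Ezh2 was lowest in liver (23.6) and the Cbx7 span was 96.0-fold. The Ezh1 to Ezh2 ratio of spleen was 1.13 in Tug1-/-, and the 27 chromobox shares recomputed from Tug1-/- or rescue means stayed within 1.5-fold of wild type.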
